A study of Mus musculus with 24 samples.

Results

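The mitochondrial ribosomal proteins are the nuclear-encoded proteins that build the ribosome inside mitochondria. All genes whose mouse symbol is Mrpl or Mrps followed by a number and at most one letter were taken, and pseudogenes were left out. This gave 78 of the 52636 genes in the files, 49 named for the large subunit (Mrpl) and 29 for the small subunit (Mrps). Their RNA was followed in polysomes, the fraction of messenger RNA that carries several ribosomes, in livers of C57BL/6 mice that were 5 months old. Calorie-restricted (CR) mice were given 30% fewer calories for 3 months from an age of 2 months, and control mice of the same strain and age ate ad libitum (AL). The zeitgeber times (ZT) sampled were 2, 6, 10, 14, 18 and 22 h, and each of the 12 combinations of diet and hour has 2 libraries. The sources used here do not give the hour at which CR mice were fed, the sex of the mice, or whether the 2 libraries of a group come from separate mice, so p-values measure the spread between libraries, which may be partly technical. Total RNA was not analysed here, so the amount of a transcript and its loading onto ribosomes cannot be told apart, and in whole liver neither can fewer cells of a type and less RNA per cell.

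The mitochondrial ribosome translates the few messenger RNAs of mitochondrial DNA, all of which encode subunits of the respiratory chain and of ATP synthase. Its RNA parts come from mitochondrial DNA, but every protein part is made on cytosolic ribosomes and imported, so its supply depends on translation in the cytosol, which polysome RNA samples. The small subunit binds the messenger RNA and the large subunit forms the peptide bond. In liver, mitochondria carry out fatty acid oxidation, ketone formation and part of the urea cycle.

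Libraries held 13.8 to 60.8 M (mega) counted reads. Ribosomal RNA features took 1.90% to 62.2% of the reads in CR and 1.02% to 62.2% in AL. Reads on the mitochondrial ribosomal protein genes numbered 29674 to 320222 per CR library and 23497 to 230006 per AL library. The 8 hepatocyte markers summed to 42250 to 94410 CPM (counts per M reads, TMM-scaled) in CR and 34560 to 74540 CPM in AL, and none was at 0. Kupffer cell markers, those of the resident liver macrophages, summed to 136 to 247.5 CPM in CR and 243 to 705 CPM in AL. No marker of that list was at 0 in all libraries. Averaged over the time points, 11 of its 12 members passed as lower in CR (edgeR's quasi-likelihood test, Benjamini-Hochberg adjusted). The remaining 1 had a positive estimate of 0.84 log2 units and did not pass, at an unadjusted p under 0.05. Markers of stellate cells and fibroblasts summed to 163 to 309 CPM in CR and 81.0 to 318 CPM in AL, with 3 of 8 higher in CR. Lower in CR were 3 of 9 tested markers of T, B and NK cells and 3 of 7 acute-phase genes. Of the 8 hepatocyte markers 1 was higher and 1 lower in CR. Of all tested genes 5.56% were higher and 7.13% lower. The part of cell composition in the results below was not tested.

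Of the 78 genes, 77 passed the filter on low counts. Mrpl53, a large-subunit gene on chromosome 6 (83109040 to 83109939, plus strand), had 0 reads in all 24 libraries, which allows at most 0.00421 CPM at 3 counts over all reads. The annotation gives 88.0% of its exon bases also to the overlapping genes Gm42688 and Ccdc142os. Levels of different genes are compared per kilobase (kb) of exon. The highest were those of Mrpl14 with 146 ± 75.8 CPM per kb and Mrps21 with 137 ± 70.8 CPM per kb (SD over 24 libraries). They were followed by Mrpl52 at 113 ± 38.4, Mrpl34 at 111 ± 54.3 and Mrpl2 at 80.4 ± 38.6 CPM per kb. Neighbours in this order lay closer together than their spread over libraries. The median gene reached 12.3 CPM per kb. Mrpl3 with 1.18 ± 0.451 and Mrps18b with 1.17 ± 0.690 CPM per kb were the lowest genes with reads, and could not be told apart by their spread. In all, 35 of the 78 genes shared more than 5% of their exon bases or of their 50-base words with another annotated gene, such as Mrps34 at 77.8% and Mrps25 at 69.8% of exon bases. Libraries were not stranded, so reads of such genes can be split or lost between neighbours.

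Averaged over the 6 time points, 5 of 77 genes differed between CR and AL, 6.49%, against 12.7% of all 15490 tested genes (edgeR's quasi-likelihood test, Benjamini-Hochberg adjusted p under 0.05). Higher in CR was 1 gene, Mrps35, where 5.56% of all genes were higher. Lower in CR were 4 genes, Mrpl10, Mrps18a, Mrpl36 and Mrpl4, where 7.13% of all genes were lower. The median change of the 77 genes was -0.04 log2 units, beside -0.02 over all tested genes. Positive changes numbered 34 and negative ones 43, between -0.65 and 0.74, and 74 of the 77 lay within 0.5 log2 units of no change. The median standard error was 0.147. A change of at least 2-fold that passed the test was found in 0 of the 77 genes and in 5.27% of all genes.

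**Figure D1:**
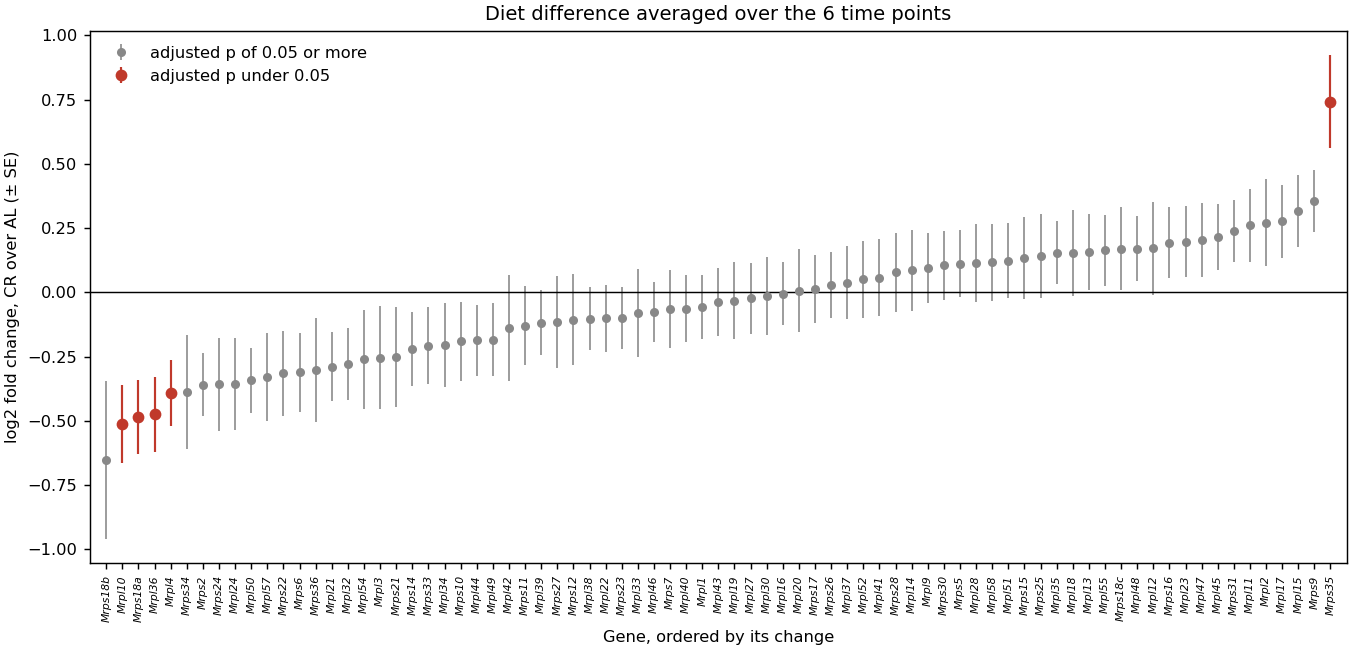
Log2 fold change of CR over AL averaged over the 6 time points, with its standard error, for the 77 tested genes in order of change; red points have an adjusted p under 0.05. The red points are Mrps35 at 0.74 on the right and 4 genes between -0.51 and -0.39 on the left, while 74 of the 77 genes lie within 0.5 of no change.

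Mrps35, a protein of the small subunit whose gene lies on chromosome 6 (147042764 to 147073991, plus strand), had 26.1, 80.2 and 118 CPM in CR (lowest, median and highest of 12 libraries), against 16.1, 45.0 and 80.4 CPM in AL. The ranges overlapped, because the CR library ZT10 2 at 26.1 CPM and both CR libraries of ZT2 lay at or below the AL median. Its change was 0.74 ± 0.18 log2 units (SE), with an adjusted p of 0.00754 in edgeR's quasi-likelihood test, and it was positive at all 6 time points. The estimate at single time points ran between 0.28 at ZT18 and 1.64 at ZT22. Both AL libraries of ZT22 were low for nearly all of these genes, as described below. Without ZT22, the mean over the other 5 time points was 0.60 log2 units and edgeR's adjusted p was 0.0580, so the call was lost, the 1 loss in 12 alternatives (lowest adjusted p 0.000142), while it held without each single library (highest adjusted p 0.0206).

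Mrpl10, the base of the flexible stalk that recruits translation factors to the large subunit (chromosome 11, 97041560 to 97049213, plus strand), had 8.25, 13.1 and 16.6 CPM in CR, against 10.49, 18.1 and 25.9 CPM in AL. Only 1 CR library, ZT18 2, exceeded 14.3 CPM, whereas 3 AL libraries lay at 14.2 CPM or lower. The change was -0.51 ± 0.15 log2 units at an adjusted p of 0.0274 in edgeR's test, and it was negative at all 6 time points. Mrpl12, the protein that Mrpl10 carries on the stalk and that also binds the mitochondrial RNA polymerase, was at 21.2, 55.1 and 79.0 CPM in CR, against 31.0, 44.1 and 91.7 CPM in AL. Its estimate of 0.17 ± 0.18 had an adjusted p of 0.613 in the same edgeR test. The 2 stalk genes therefore gave estimates of opposite sign, of which that of Mrpl10 passed the test, and the difference between them was not tested.

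Mrps18a (chromosome 17, 46110986 to 46128910, plus strand) is one of a set of paralogs with Mrps18b and Mrps18c, and in mammals its protein sits in the large subunit in spite of its name. It had 11.9, 21.3 and 34.0 CPM in CR, against 17.6, 27.6 and 50.4 CPM in AL, with overlapping ranges. The change was -0.48 ± 0.14 log2 units (edgeR's adjusted p 0.0282), with negative estimates at 5 of 6 time points. Mrps18b, at 0.306, 1.34 and 4.11 CPM in CR and 0.773, 3.35 and 5.53 CPM in AL, had the lowest estimate of all 77 genes, -0.65 ± 0.31, and edgeR's adjusted p was 0.173. Mrps18c, at 15.0, 27.9 and 51.3 CPM in CR and 14.7, 24.1 and 68.4 CPM in AL, had an estimate of 0.17 ± 0.16 and an adjusted p of 0.558 in edgeR. Of Mrps18b and Mrps18c, 30.5% and 23.2% of exon bases overlap a neighbouring gene, and of Mrps18a 0%.

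Mrpl36, a short protein of the large subunit (chromosome 13, 73328513 to 73332178, plus strand), had 14.4, 34.4 and 54.2 CPM in CR, against 21.4, 45.2 and 85.4 CPM in AL. All CR libraries lay below 54.2 CPM or at it, and 5 AL libraries exceeded that value. The change was -0.47 ± 0.15 log2 units (edgeR's adjusted p 0.0344). Mrpl4, which lines the peptide exit tunnel (chromosome 9, 21002738 to 21008839, plus strand), had 10.7, 18.1 and 32.6 CPM in CR, against 17.3, 23.0 and 46.7 CPM in AL. Its change of -0.39 ± 0.13 was close to the threshold at an adjusted p of 0.0474 in edgeR's test. Over the 12 alternatives to the reported fit, Mrpl10 passed in 11, Mrps18a in 10, Mrpl36 in 8 and Mrpl4 in 3, and the highest adjusted p of Mrpl4 was 0.261 in edgeR without a composition factor. The calls of the 4 lower genes also depended on single libraries. None of the 4 passed when AL ZT10 2, AL ZT14 1, AL ZT18 2, CR ZT18 1, CR ZT22 1 or CR ZT22 2 was left out, and 6 genes passed as lower without AL ZT14 2, AL ZT18 1, CR ZT10 1 or CR ZT10 2. All 4 estimates stayed negative without each of the 24 libraries.

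**Figure D2:**
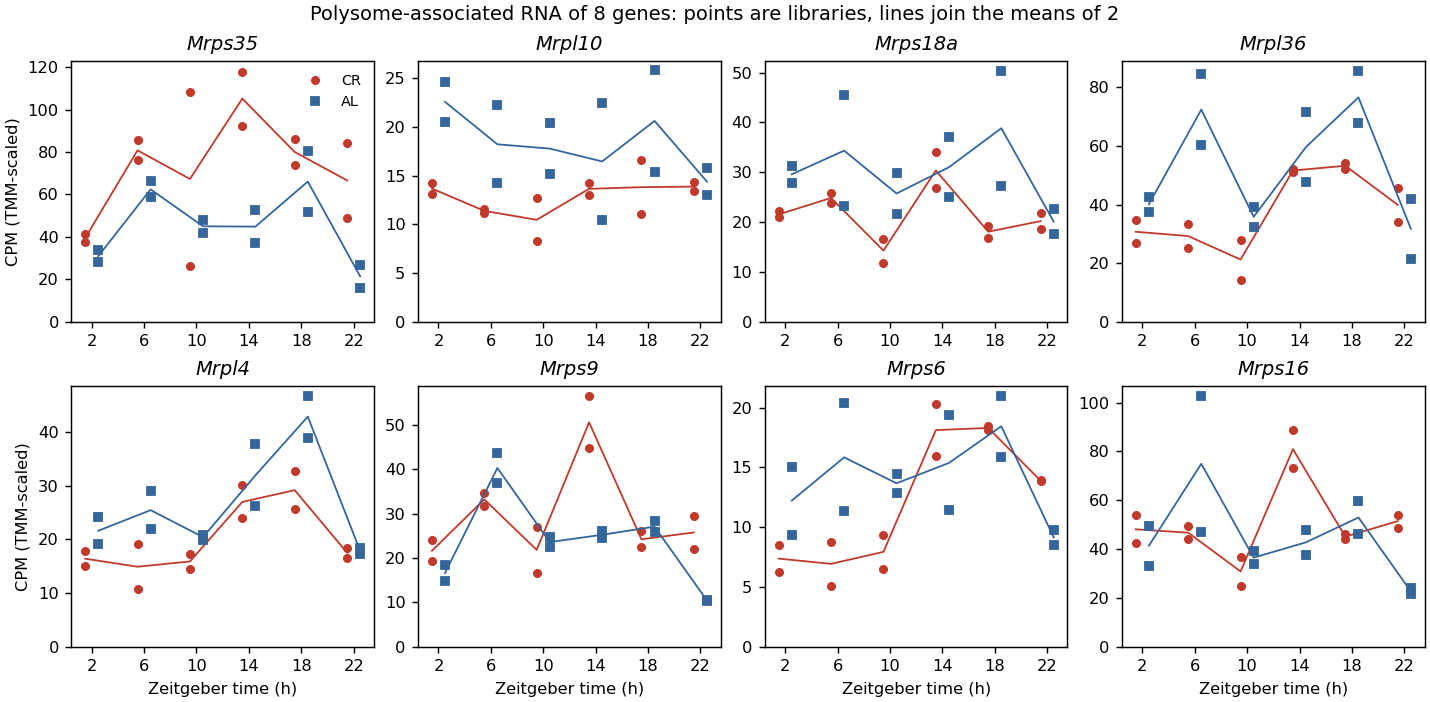
CPM by zeitgeber time (h) for 8 genes; each point is 1 library, CR as red circles and AL as blue squares, and lines join the means of the 2 libraries of a group. Mrps35 is higher in CR at every time point by its means, Mrpl10 and Mrpl4 are lower, and Mrps9 and Mrps16 stand apart between the diets mainly at ZT14 and ZT22.

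Other genes named for their roles did not pass the test. Mrpl58, a release factor that frees peptides from stalled mitochondrial ribosomes, was at 54.2 ± 17.0 CPM in CR and 50.3 ± 18.1 CPM in AL (SD, n = 12 each), an estimate of 0.12 ± 0.15 log2 units. Mrps36, which in mammals is linked to the alpha-ketoglutarate dehydrogenase complex, was at 9.66 ± 3.96 CPM in CR and 11.8 ± 4.76 CPM in AL, an estimate of -0.30 ± 0.20. The paralogs Mrpl37 and Mrps30, both found in the large subunit in mammals, had estimates of 0.04 ± 0.14 and 0.105 ± 0.135 log2 units. Of these 4 genes none passed edgeR's test, and the lowest adjusted p was 0.367. By subunit, 3 of 48 tested large-subunit names and 2 of 29 small-subunit names passed, with medians of -0.02 and -0.11 log2 units.

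No gene separated the diets fully. In 0 of 77 genes did all CR libraries lie above or below all AL libraries, a pattern found in 0.284% of all tested genes. The diet difference kept one sign at all 6 time points in 4 genes, 5.19%, against 14.2% of all tested genes. These were Mrps35 (higher) and Mrpl10, Mrpl4 and Mrps18b (lower).

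The neighbouring pathways gave context on the same diet average. Of the 80 nuclear genes of the respiratory chain, which join the products of the mitochondrial ribosome in shared complexes, 79 were tested, 6 were higher and 0 lower, with a median of 0.19 log2 units. Of 78 cytosolic ribosomal protein genes 4 were higher and 2 lower, with a median of 0.20. Of 27 genes for assembly of the mitochondrial ribosome 0 passed edgeR's test, and the median was 0.02. An unadjusted p under 0.05 was seen in 3 of the 27, beside 4118 of all 15490 tested genes. Among 14 tested translation factors of mitochondria, Guf1, an elongation factor, was higher in CR at 12.3 ± 3.28 CPM, against 9.02 ± 1.58 CPM in AL. Mrrf, the ribosome recycling factor, was lower at 11.3 ± 2.31 CPM in CR, against 16 ± 5.07 CPM in AL. Their changes were 0.43 ± 0.14 and -0.48 ± 0.15 log2 units, at adjusted p of 0.0442 and 0.0333 in edgeR's test.

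Some mitochondrial ribosome proteins carry other names, and of Dap3, Ptcd3, Chchd1, Aurkaip1 and Gadd45gip1 0 of 5 passed. An unadjusted p under 0.05 was seen in 3 of the 5, beside 4118 of all 15490 tested genes. Dap3, a GTP-binding protein of the small subunit, was at 40.8 ± 8.57 CPM in CR and 32.6 ± 11.4 CPM in AL, an estimate of 0.36 ± 0.12 with an adjusted p of 0.0575 in edgeR. Of 11 genes for mitochondrial transcription and DNA upkeep, 1 was lower, the transcription elongation factor Tefm at 5.77 ± 1.51 CPM in CR and 8.38 ± 2.72 CPM in AL (-0.53 ± 0.15, edgeR's adjusted p 0.0245). Among 10 regulators of mitochondrial genes, the coactivator Ppargc1a was higher at 9.76 ± 6.42 CPM in CR, against 2.88 ± 1.15 CPM in AL, a change of 1.62 ± 0.22 log2 units (edgeR's adjusted p 1.43e-05). Its relative Ppargc1b was higher by 0.94 ± 0.22 log2 units (edgeR's adjusted p 0.00626). The transcription factors Nrf1, Gabpa and Yy1, whose motifs are counted below, had estimates of 0.13 ± 0.15, -0.03 ± 0.20 and -0.30 ± 0.12 log2 units, and none passed edgeR's test.

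The messenger RNAs made from mitochondrial DNA, which the mitochondrial ribosome reads, are not translated by the polysomes of the cytosol, and the libraries were selected for poly(A) tails. Of 13 such genes 11 were tested and 1, mt-Co2, was higher in CR at 6.20 ± 2.58 CPM, against 3.63 ± 1.64 CPM in AL, a change of 0.71 ± 0.22 log2 units (edgeR's adjusted p 0.0383). The median over the 11 was 0.41. Their CR means ran from 0.978 CPM for mt-Nd3 to 1444 CPM for mt-Cytb, so mt-Co2 was among those with few counts. Whether its count represents its transcript was not tested. The ribosomal RNAs of mitochondria, mt-Rnr1 and mt-Rnr2, had estimates of 1.17 ± 0.77 and 1.26 ± 0.77 log2 units, and edgeR's adjusted p was 0.379 and 0.339.

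Promoter windows of RefSeq, 250 bases before to 50 after the gene start on build GRCm38.p6, were found for 69 of the 78 genes. Both strands were searched for 5 motifs, each match being counted also where it overlapped another. The ETS motif CCGGAAG, bound by Gabpa, occurred in 26 of 69 genes (37.7%), against 12.9% of all protein-coding genes with a window. The Nrf1 motif, GCGCA and GCGC with any one base between them, occurred in 13 genes (18.8%) against 7.17%, and the Yy1 motif AANATGGCG in 11 genes (15.9%) against 3.64%. The cyclic AMP response element TGACGTCA was found in 2 genes (2.9%) against 2.54%, and the E-box CACGTG in 5 genes (7.25%) against 8.91%. These are letter matches, not measured binding. The 4 windows printed here show Mrps18a and Mrpl36, which were lower in CR, Mrps9, which passed the test at ZT22, and Mrps11, whose start lies near that of Mrpl46 on the other strand. They lie on the plus strand at chr17:46110754-46111053, chr13:73330759-73331058, chr1:42850983-42851282 and chr7:78782881-78783180, in that order. Capitals mark matches to the ETS, Nrf1 or Yy1 motif, in the reverse complement where the motif lies on the minus strand. They are an ETS and a Yy1 match in Mrps18a, a Yy1 match in Mrpl36 and in Mrps11, and an Nrf1 match in Mrps9.
Mrps18a: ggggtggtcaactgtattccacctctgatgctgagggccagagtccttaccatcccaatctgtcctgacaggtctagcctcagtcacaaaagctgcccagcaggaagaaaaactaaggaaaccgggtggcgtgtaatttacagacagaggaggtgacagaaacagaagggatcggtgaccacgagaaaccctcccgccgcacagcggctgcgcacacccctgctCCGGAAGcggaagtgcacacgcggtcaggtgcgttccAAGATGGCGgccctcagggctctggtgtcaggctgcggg
Mrpl36: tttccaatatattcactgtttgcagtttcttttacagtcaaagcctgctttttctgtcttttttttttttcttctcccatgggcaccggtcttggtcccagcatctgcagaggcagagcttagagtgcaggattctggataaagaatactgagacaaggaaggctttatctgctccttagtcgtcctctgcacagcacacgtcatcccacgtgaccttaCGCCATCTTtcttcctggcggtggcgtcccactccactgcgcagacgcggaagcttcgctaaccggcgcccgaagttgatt
Mrps9: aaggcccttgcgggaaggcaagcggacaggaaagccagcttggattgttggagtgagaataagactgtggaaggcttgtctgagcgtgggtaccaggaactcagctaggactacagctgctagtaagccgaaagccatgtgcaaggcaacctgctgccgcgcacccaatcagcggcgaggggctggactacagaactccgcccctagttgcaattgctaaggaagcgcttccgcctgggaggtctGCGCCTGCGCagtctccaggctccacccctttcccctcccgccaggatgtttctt
Mrps11: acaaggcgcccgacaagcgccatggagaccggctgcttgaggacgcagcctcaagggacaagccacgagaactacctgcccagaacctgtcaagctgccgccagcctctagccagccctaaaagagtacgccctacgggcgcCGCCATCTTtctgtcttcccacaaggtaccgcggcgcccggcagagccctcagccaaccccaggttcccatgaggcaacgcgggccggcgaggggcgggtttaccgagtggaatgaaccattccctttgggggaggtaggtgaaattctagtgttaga

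Mrps18a, with an ETS and a Yy1 match, and Mrpl36, with a Yy1 match and an E-box left in lower case, were lower on the diet average, and Mrps9, with an Nrf1 match, was not called on it. The windows of Mrpl10 and Mrps6, genes that also passed a test, held no match to the ETS, Nrf1 or Yy1 motif. For Mrps35 and Mrpl4, also called on the diet average, no window was found.

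Over the day, the genes moved largely as a group, and the highest mean of 2 libraries fell at a different time in each diet. The level of the group in a library is the median over the 77 genes of log2(CPM + 0.5) minus the gene's own mean over the 24 libraries. In CR the 2 libraries of a group had levels of -0.39 and -0.11 at ZT2, -0.04 and 0.02 at ZT6, -0.03 and -0.82 at ZT10, 0.52 and 0.49 at ZT14, 0.22 and 0.26 at ZT18, and 0.08 and -0.17 at ZT22. In AL they were -0.09 and -0.36 at ZT2, 0.51 and 0.17 at ZT6, -0.10 and 0.02 at ZT10, 0.42 and -0.11 at ZT14, 0.42 and 0.53 at ZT18, and -0.75 and -0.44 at ZT22. The highest mean was thus at ZT14 in CR (0.50) and at ZT18 in AL (0.48), and the lowest at ZT10 in CR (-0.43) and at ZT22 in AL (-0.59). The gap between the 2 libraries reached 0.787 in CR at ZT10, so that the low CR mean there came from 1 library. In AL at ZT14 the gap was 0.533. AL ZT14 1 was at the level of AL ZT18 1, 0.42, and AL ZT14 2, with 13.8 M counted reads, lowered the AL mean at ZT14. The size of the step from ZT14 to ZT18 in AL thus leaned on AL ZT14 2. The place of the AL peak did not, as AL ZT14 1 alone, at 0.42, lay slightly below the AL ZT18 mean of 0.48. A difference in peak time of the group was not tested.

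**Figure D3:**
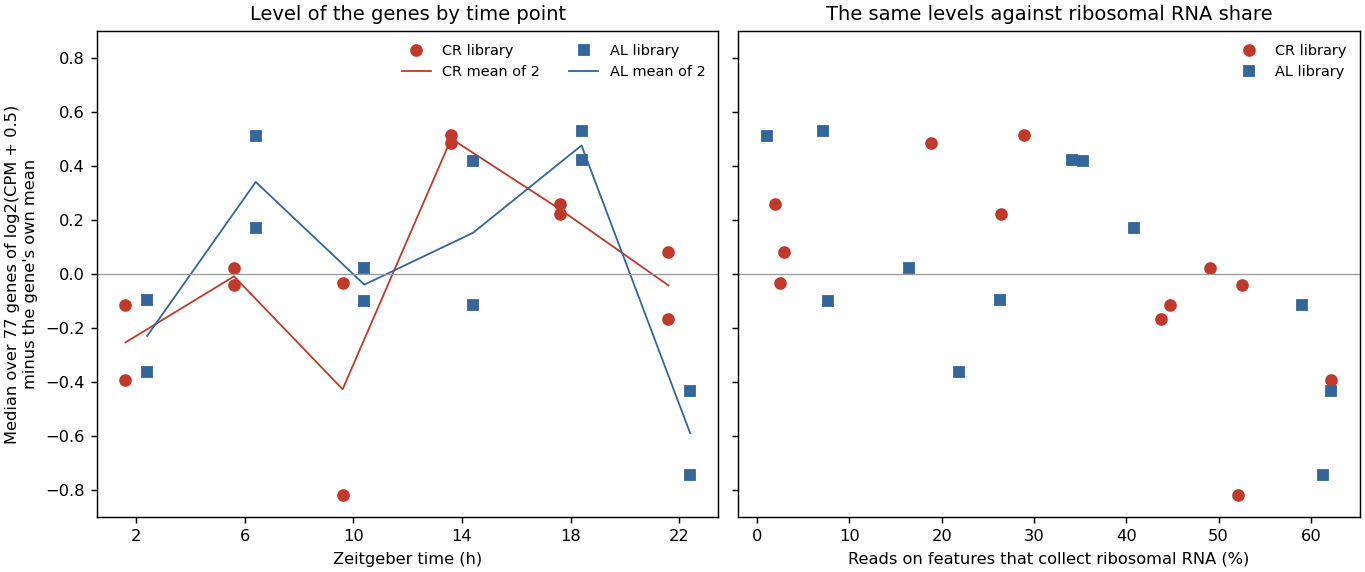
Median over the 77 genes of log2(CPM + 0.5) minus the gene's own mean, for each library, CR as red circles and AL as blue squares. On the left it is plotted against zeitgeber time (h) with lines through the means of 2 libraries, which peak at ZT14 in CR and ZT18 in AL. On the right it is plotted against the percentage of reads on features that collect ribosomal RNA, where the 4 lowest levels have shares of 52.1% to 62.2%. The next lowest level, -0.36 in AL ZT2 2, has a share of 21.9%.

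The sum over the genes was 3394 ± 965 CPM in CR, 1680 to 5056 CPM, and 3428 ± 1101 CPM in AL, 1836 to 5148 CPM (SD, n = 12 each). Large- and small-subunit genes moved together, with medians of -0.82 and -0.83 in CR ZT10 2 and -0.78 and -0.70 in AL ZT22 2C. The 4 libraries of lowest level had high ribosomal RNA shares, 52.1% in CR ZT10 2, 62.2% in CR ZT2 1, 61.3% in AL ZT22 2C and 62.2% in AL ZT22 2d. The library of next lowest level, AL ZT2 2 at -0.36, had a share of 21.9%. In CR ZT6 1 with 52.5% and AL ZT14 2 with 59.0% the levels were -0.04 and -0.11. AL ZT22 2C also stood apart in acute-phase genes, with a median of 5.25 log2 units above their own means. The part of these features of the libraries in the levels was not tested.

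Counted gene by gene, 53 of 77 genes (68.8%) had their highest CR group mean at ZT14, against 21.1% of all tested genes, and 16 had it at ZT18. The lowest CR mean was at ZT10 in 38 genes (49.4%), against 13.01% of all genes. In AL the highest mean was at ZT18 in 42 genes (54.5%), against 18.4% of all genes, and at ZT6 in 25. The lowest was at ZT22 in 63 genes (81.8%), against 22.5%. The nuclear genes of the respiratory chain had their highest mean at ZT14 in 71 of 79 cases in CR and at ZT18 in 39 and ZT6 in 31 of 79 in AL. Cytosolic ribosomal protein genes in AL were lowest at ZT2 in 67 of 78 cases, rather than at ZT22. These counts describe groups of 2 libraries and carry no test.

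**Figure D4:**
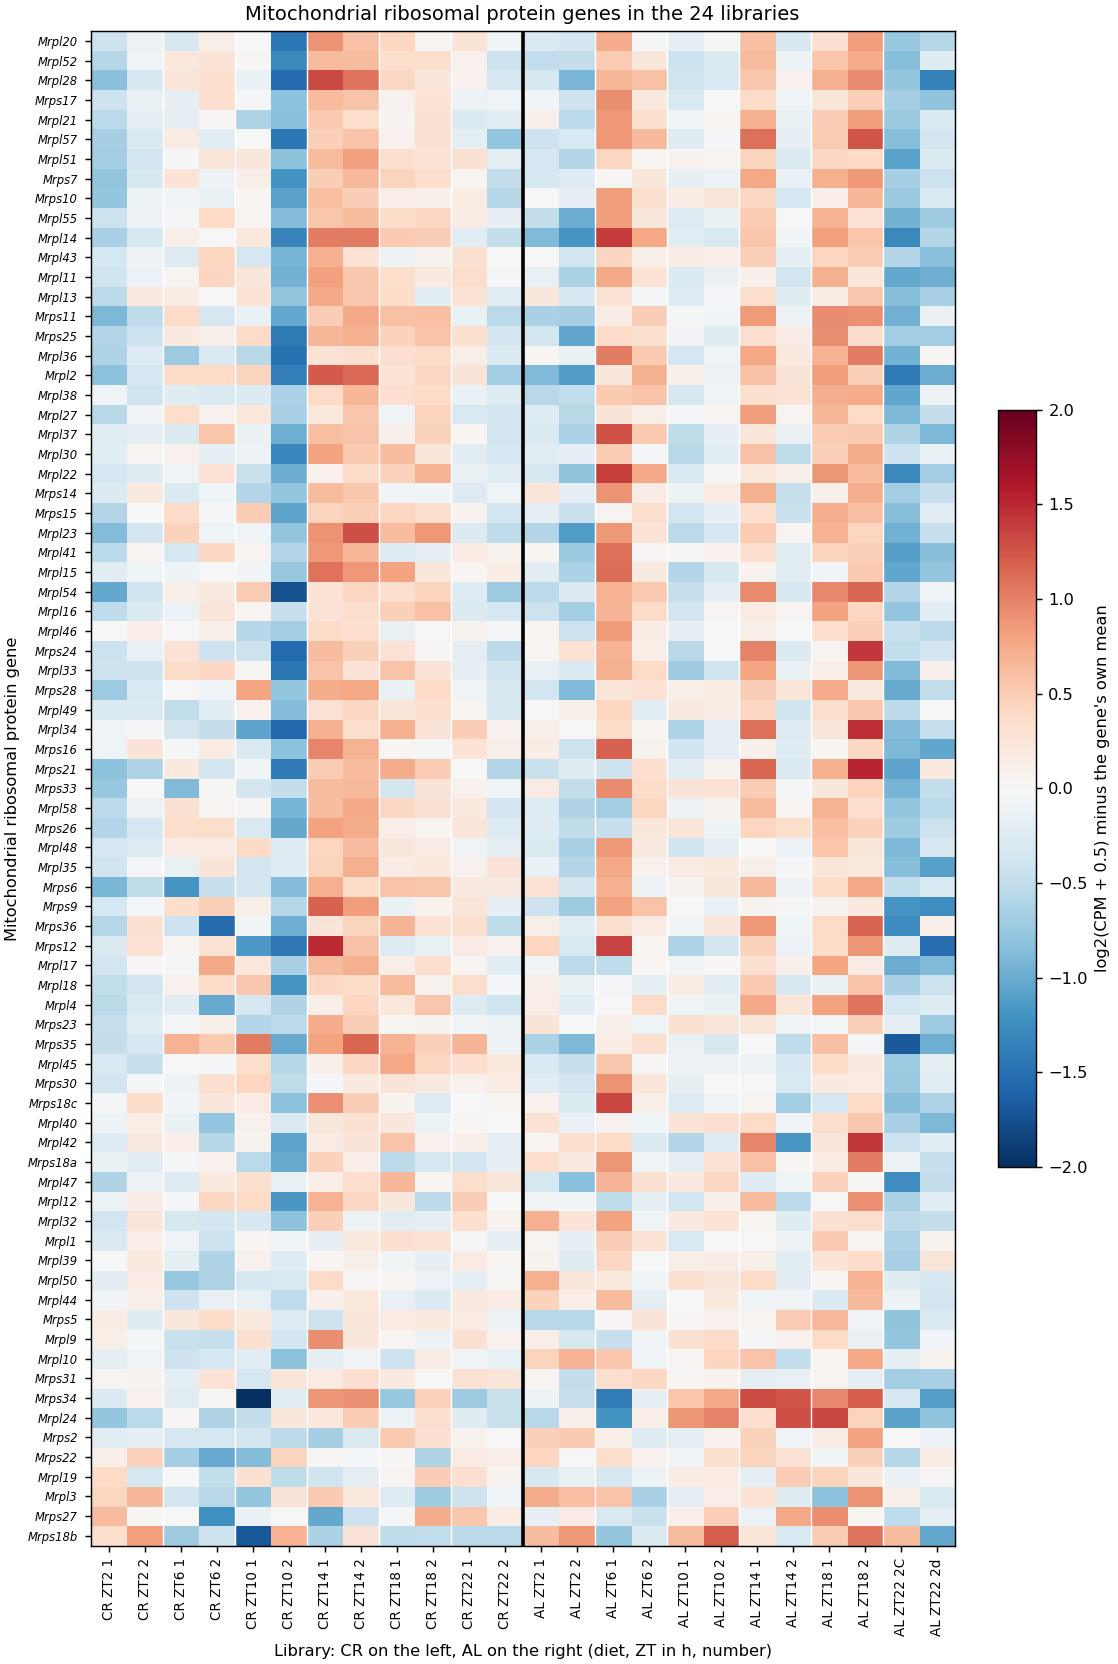
Log2(CPM + 0.5) minus the gene's own mean for the 77 genes (rows, ordered by correlation with the mean of the others, highest on top) in the 24 libraries (columns, CR left of the black line and AL right of it); colours end at 2 log2 units. The columns CR ZT10 2, AL ZT22 2C and AL ZT22 2d are blue in most rows, CR ZT14 and AL ZT18 are red in most rows, and the bottom rows do not follow.

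At single time points the median change was 0.04 log2 units at ZT2, -0.42 at ZT6, -0.26 at ZT10, 0.32 at ZT14, -0.31 at ZT18 and 0.56 at ZT22, with medians over all tested genes between -0.06 and 0.04. With a covariate for the ribosomal RNA ratio, chosen after seeing the data, the median was -0.14 at ZT6, 0.20 at ZT14 and 0.33 at ZT22, and the signs at all 6 time points were kept. Estimates were negative in 66 of 77 genes at ZT6, 65 at ZT10 and 69 at ZT18, and positive in 58 at ZT14 and 71 at ZT22. The genes share libraries, so these are not independent counts. In edgeR's test 0 genes passed at ZT2, ZT6, ZT10, ZT14 and ZT18, where 0.42%, 0.297%, 0.704%, 1.27% and 0.407% of all genes did. Unadjusted p under 0.05 was seen in 1, 16, 11, 10 and 3 of the 77 genes at these times. Over all 15490 genes it was seen in 1148, 2097, 1660, 2194 and 1612. DESeq2 called 0, 1, 0, 1 and 0 of the 77, and 213, 322, 344, 596 and 236 of all genes. The median at ZT10 was -0.003 without CR ZT10 2, which lies above the median of all genes in that fit, -0.10, and it was -0.78 without CR ZT10 1. At ZT6 it was -0.15 without AL ZT6 1, and at ZT14 0.66 without AL ZT14 1 and 0.09 without AL ZT14 2.

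**Figure D5:**
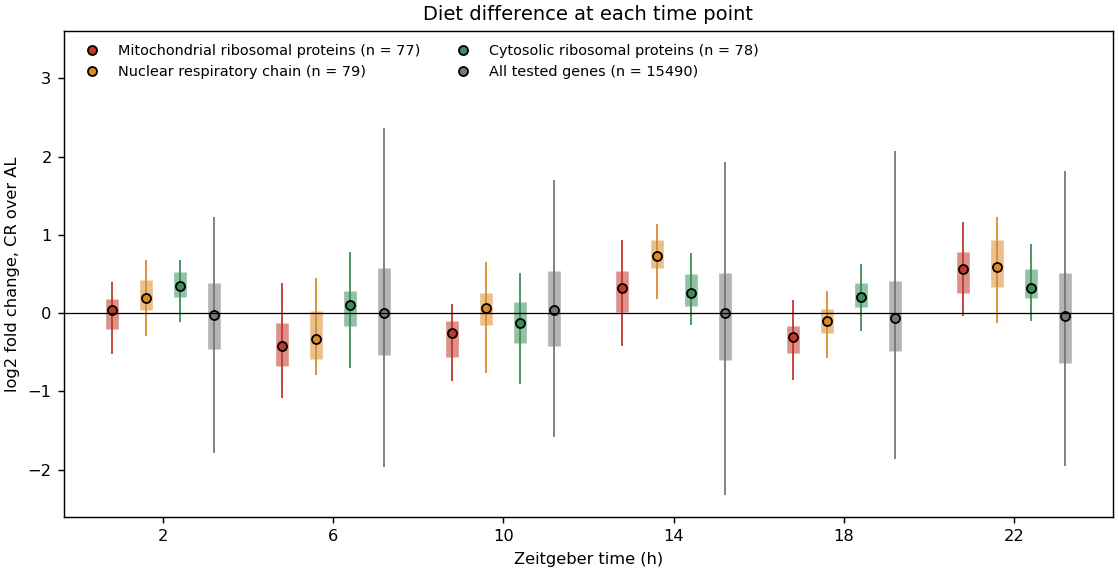
Log2 fold change of CR over AL at each zeitgeber time (h) for the 77 genes, 79 nuclear genes of the respiratory chain, 78 cytosolic ribosomal protein genes and all 15490 tested genes; points are medians, thick bars hold the middle 50% of genes and thin lines run from the 5th to the 95th percentile. The median of the mitochondrial ribosomal proteins lies between -0.42 at ZT6 and 0.56 at ZT22, while that of all genes stays between -0.06 and 0.04.

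At ZT22, 20 of the 77 genes had an unadjusted p under 0.05, beside 2193 of all 15490. In edgeR's test 1 of the 77 passed there, against 0.742% of all genes. This was Mrps9 (chromosome 1, 42851233 to 42905683, plus strand), a protein of the head of the small subunit. It had 29.5 and 22.0 CPM in the CR libraries, against 10.6 and 10.2 CPM in the AL libraries, a change of 1.31 ± 0.30 log2 units (edgeR's adjusted p 0.0422). At ZT14 it had 56.4 and 44.7 CPM in CR, against 26.0 and 24.4 CPM in AL, an estimate of 1.00 ± 0.30 with edgeR's adjusted p at 0.0961. At ZT6, by contrast, the CR libraries were at 31.6 and 34.7 CPM and the AL libraries at 43.6 and 36.9 CPM. On the diet average its estimate was 0.36 ± 0.12 with an adjusted p of 0.0549 in edgeR. The call at ZT22 held in 4 of 24 fits that left out 1 library, those without a CR library of ZT6 or ZT10, and its estimates ran between 1.12 without CR ZT22 1 and 1.62 without CR ZT22 2. With a covariate for the ribosomal RNA ratio the change was 1.04 log2 units and edgeR's adjusted p 0.129, within a span of 0.00219 to 0.354 over the 10 alternatives that kept or dropped named sets of libraries.

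Whether the diet difference varied with time was tested over all 6 time points. In this interaction test of edgeR 0 of 77 genes and 0% of all genes passed. Of the 77, 19 had an unadjusted p under 0.05, beside 1308 of all 15490. DESeq2 called 1 of the 77 and 188 of all genes. The 6 genes of smallest p were Mrps9, Mrps16, Mrpl35, Mrpl15, Mrpl22 and Mrpl41, with unadjusted p between 0.00320 and 0.0132 in edgeR and adjusted p between 0.452 and 0.539. Mrps16, a small-subunit protein whose loss causes a respiratory chain disease in humans, shows the shape. It had 88.7 and 73.1 CPM in CR at ZT14, against 47.9 and 37.6 CPM in AL, and 54.1 and 48.8 CPM in CR at ZT22, against 23.9 and 21.5 CPM in AL. At ZT6 it had 43.9 and 49.5 CPM in CR, against 103 and 47.1 CPM in AL, where only AL ZT6 1 lay above the CR libraries. All 6 genes had positive estimates at ZT14 and ZT22 and negative ones at ZT6, as most of the 77 genes did. Because the 6 were picked by their interaction p, their shared signs are not separate evidence that the diet difference varied with time. Mrpl22, which lines the exit tunnel beside Mrpl4, ran between -0.99 at ZT6 and 0.80 at ZT22.

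A 24 h rhythm was fitted per diet as a cosine, with the amplitude taken from mean to peak. In CR 1 of 77 genes passed edgeR's test, against 1.98% of all genes. An unadjusted p under 0.05 was seen in 12 of the 77 and in 2648 of all 15490. In AL 0 of 77 passed, against 0.452% of all genes. There 14 of the 77 and 1576 of all genes had an unadjusted p under 0.05, and DESeq2 called 2 of the 77 and 270 of all genes. The rhythmic gene in CR was Mrps6 (chromosome 16, 92058270 to 92112227, plus strand), a small-subunit protein, of whose exon bases 19.9% overlap Gm49711 and Slc5a3. In CR it had 6.27 and 8.48 CPM at ZT2, 5.11 and 8.77 at ZT6, 9.38 and 6.50 at ZT10, 20.3 and 15.96 at ZT14, 18.5 and 18.2 at ZT18, and 13.9 and 13.9 CPM at ZT22. In AL it had 15.1 and 9.39 CPM at ZT2, 20.4 and 11.3 at ZT6, 12.9 and 14.4 at ZT10, 19.4 and 11.4 at ZT14, 15.9 and 21.0 at ZT18, and 8.52 and 9.79 CPM at ZT22. All 6 CR libraries of ZT14 to ZT22 lay above all 6 of ZT2 to ZT10, and the AL libraries of these times overlapped. The CR amplitude was 0.83 log2 units with a peak at ZT 17.3 (edgeR's adjusted p 0.0158), and that in AL was 0.26 (edgeR's adjusted p 0.762). The difference between the rhythms had an unadjusted p of 0.00833 and an adjusted p of 0.777 in edgeR, so Mrps6 was not shown to differ between diets in its rhythm. Over all 77 genes 0 passed the test of that difference, as did 0% of all genes. An unadjusted p under 0.05 was seen in 1 of the 77 and in 960 of all 15490. DESeq2 called 0 of the 77 and 6 of all genes. The median amplitude was 0.31 in CR and 0.33 in AL.

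The genes varied together between libraries. Each gene's log2 level was correlated with the mean of the other genes over the 24 libraries, a description in which all points share libraries, depth and normalization. The median Pearson r was 0.80, from -0.11 to 0.94, and 63 of 77 genes exceeded 0.5, against 14.7% of the other tested genes set against the same mean. After removing group means the median was 0.71. Highest were Mrpl20 and Mrpl52 with 0.94 and 0.93. The nuclear genes of the respiratory chain had a median r of 0.83 with the same mean, cytosolic ribosomal proteins 0.73, assembly genes 0.57, messenger RNAs of mitochondrial DNA 0.34 and mitochondrial translation factors 0.003.

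The 8 genes of lowest r, chosen after their values were seen, were Mrps18b (-0.11), Mrps27 (-0.06), Mrpl3 (0.02), Mrpl19 (0.10), Mrps22 (0.13), Mrps2 (0.28), Mrpl24 (0.34) and Mrps34 (0.39). In 5 of them, Mrps18b, Mrps27, Mrpl19, Mrpl24 and Mrps34, 24.2% to 77.8% of exon bases overlap a neighbouring gene, while in Mrpl3 3.72% and in Mrps22 and Mrps2 0% do. Such overlap also occurred in genes that followed the group, since Mrps18c, Mrpl47, Mrpl43 and Mrps25, with 23.2% to 69.8% of exon bases, had an r between 0.64 and 0.88. The genes called on the diet average had an r of 0.42 for Mrpl10, 0.65 for Mrps18a, 0.70 for Mrps35, 0.72 for Mrpl4 and 0.86 for Mrpl36.

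Many of these genes share a start region with a gene on the opposite strand. For 33 of 78 genes (42.3%) the start of a gene running the other way in the GENCODE annotation lay within 1000 bases, against 10.8% of all 21924 protein-coding genes. Distances below also use GENCODE starts, which can differ from the RefSeq starts of the promoter windows. Mrps11 and Mrpl46 run in opposite directions from starts 412 bases apart, and had an r of 0.56 over the 24 libraries. They share 7.97% of the exon bases of Mrps11 and 12.2% of those of Mrpl46. The RefSeq starts behind their promoter windows lie closer together. Mrpl36 starts 29 bases from Ndufs6, a subunit of respiratory complex I, and the pair had an r of 0.69. This holds for the GENCODE start of Mrpl36 at 73328513. The RefSeq window printed above, chr13:73330759-73331058, does not contain that start and lies further from Ndufs6. Mrpl36 was lower in CR while Ndufs6 had an estimate of 0.26 ± 0.16 (edgeR's adjusted p 0.323). Mrpl10, also lower in CR, starts 153 bases from Lrrc46, whose estimate had the same sign, -1.03 ± 0.34 (edgeR's adjusted p 0.0501), and the pair had an r of 0.45. Mrpl49 starts 59 bases from Fau, a gene for a cytosolic ribosomal protein. Fau was higher in CR by 0.60 ± 0.16 log2 units (edgeR's adjusted p 0.0139), and Mrpl49 had an estimate of -0.18 and an adjusted p of 0.448. The difference within these pairs was not tested. Of the 33 neighbours 30 were tested and 2 passed, Fau and Pnpla7, a lysophospholipase that starts 935 bases from Mrpl41 and was lower by -1.08 ± 0.18 log2 units (edgeR's adjusted p 0.000174). The r of a gene with its neighbour ran from -0.66 for Mrpl18 and Tcp1, a chaperonin subunit, to 0.72 for Mrpl54 and Apba3, with a median of 0.15. Exon bases shared with the neighbour were 10.1% in Mrpl18, 2.58% in Mrpl36 and 0% in Mrpl54. Libraries were not stranded, and the part of such overlap in the r was not tested.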

How the data were processed

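RNA associated with polysomes in mouse liver was sequenced from poly(A)-selected, non-stranded libraries, per the labels. What was deposited is a raw count of reads for every gene and library. FastQC, HTSeq, DESeq2 and build GRCm38.p5 are named by the submitters' processing notes, and the sources used here give neither versions nor the aligner. Symbols were matched by gene ID without version, and 69 of the 78 genes had the same ID version in the names table. Exon lengths and overlaps came from GENCODE M21 on GRCm38.

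Counts of all 24 libraries entered 1 edgeR 4.0.16 quasi-likelihood model (R 4.3.3) with a mean per group, TMM normalization and filterByExpr, which left 15490 genes. P-values were adjusted by Benjamini-Hochberg over all tested genes at 0.05. CPM values are TMM-scaled. Standard errors are given for differences between the diets only, as the estimate divided by the square root of its F. Sums of reads per library set the precision. DESeq2 1.42.0 was an alternative, with other size factors, filters, a replicate block, leaving out libraries, and, chosen after seeing the data, a ribosomal RNA covariate and a fit without ZT22. The procedure was tested on simulated counts. The genes, lists and named-gene rule were chosen with earlier results of these data known. Named were genes that passed a test, the 6 of smallest interaction p, the 5 of highest and 3 of lowest level per kb, and 9 fixed for their roles. Features counted as ribosomal RNA were those annotated as such and a list of named features, and they stayed in the reported fit.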

Additional observations from a re-analysis of the deposited data

How the results depend on the processing

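Counts of genes per comparison moved with the settings. Higher on the diet average (1 in the reported fit) were 2 with DESeq2, with size factors of the DESeq2 kind, with at least 1 CPM in 12 libraries, without the ribosomal RNA features and with a covariate for the ribosomal RNA ratio, the added gene being Mrps9, and 0 without ZT22. Lower (4 in the reported fit) were 2 with size factors of the DESeq2 kind, with at least 1 CPM in 12 libraries and without AL ZT10 1 and AL ZT22 2C, 0 with no composition factor, and 5 with the covariate, which added Mrps2. They were 3 with no low-count filter, without the ribosomal RNA features, in the additive model, without CR ZT6 2 and CR ZT18 2, and without ZT22. Calls over all genes on the diet average moved between 1185 with no composition factor and 2510 with DESeq2, beside 1966 in the reported fit. At ZT6 1 gene was called with DESeq2 and 1 with no low-count filter, at ZT10 1 with no low-count filter, and at ZT14 1 with DESeq2. Over all 15490 genes DESeq2 called 322 at ZT6 and 596 at ZT14. With no low-count filter 439 of 26913 genes were called at ZT6 and 425 at ZT10. At ZT22 (1 in the reported fit) DESeq2 called 6, a fit without composition factor 30, no low-count filter 2 and at least 1 CPM in 12 libraries 2. Over all genes these 4 fits called 520 of 15490, 1754 of 15490, 562 of 26913 and 146 of 10823, beside 115 in the reported fit. The replicate block, the covariate, and the fit without AL ZT10 1 and AL ZT22 2C called 0 of the 77, and 72, 70 and 31 of all genes. The interaction gave 1 with DESeq2 and 2 with no low-count filter, and over all genes 188 and 709. Rhythms in CR numbered 0 without a composition factor and 3 with no low-count filter, and in AL 2 with DESeq2 and 2 with no low-count filter. Over all genes these numbers were 186 and 1244 in CR, and 270 and 447 in AL. Without a composition factor the median change of the genes was -0.70 at ZT2, -0.92 at ZT6, 0.57 at ZT14, -0.038 at ZT18 and 1.56 at ZT22, but the median of all genes moved too, between -0.80 at ZT2 and 0.91 at ZT22. Relative to all genes, the median of the 77 genes stayed negative at ZT6, ZT10 and ZT18 and positive at ZT14 and ZT22 under the 10 settings on all or named sets of libraries, between -0.47 and -0.11 at ZT6 and between 0.35 and 0.65 at ZT22. Leaving out CR ZT10 2 alone turned this sign at ZT10, with medians of -0.0032 for the 77 genes and -0.10 for all genes. With the covariate the median was -0.14 at ZT6, 0.20 at ZT14 and 0.33 at ZT22. The cause of these moves was not tested.

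Leaving out 1 library gave 1 to 2 genes higher and 0 to 6 lower on the diet average, 0 to 2 at ZT10, 0 to 1 at ZT14, 0 to 4 at ZT22, 1 to 2 rhythmic in CR and 0 to 1 in AL. The medians then ran from -0.10 to 0.03 on the diet average, -0.62 to -0.15 at ZT6, -0.78 to -0.0032 at ZT10 and 0.090 to 0.66 at ZT14. Mrps35 and the CR rhythm of Mrps6 passed without each of the 24 libraries, Mrps18a in 14, Mrpl10 in 12, Mrpl36 in 8 and Mrpl4 in 5 of them. With a lone library left in a group, its spread was taken to be that of the others.

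Most groups hold a library 1 and a library 2, and no label says that a number pairs them. Deviations of same-numbered libraries correlated with a median r of -0.003 (lowest -0.25, highest 0.51), over 0.1 in 9 of 55 pairs among 11 groups. Whether the numbers pair the samples in some of these groups was not tested. With the replicate block 1 gene was higher and 3 lower on the diet average (edgeR's adjusted p of Mrpl4 0.0558), and 0 at ZT22 (Mrps9, 0.0910). In this block both AL ZT22 libraries, 2C and 2d, count as number 2, so the block term also shifts the AL mean there. The median change at ZT22 was 0.47 with the block and 0.56 in the reported fit. The part of this coding in the lost call was not tested. With 2 libraries per group, depth and replicate number limit what single time points can show.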
